A study of Mus musculus with 2 samples.

Results

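A set of 10 genes of inherited peripheral neuropathy, which shape membranes and mitochondria, was followed in ribosome profiling libraries of mouse spinal cord. They were taken by Ensembl identifier from a list that was chosen with earlier results of these data known. All 10 members were among the 12530 genes of the deposited tables. The first library came from animals with 1 copy of the Gars C201R missense allele (heterozygotes, Gars C201R/+), and the other from wild-type animals. Each library was made from spinal cord lysates of 3 animals of its genotype, pooled before the library was built, and no age, sex or strain background of these animals is used here. Gars encodes glycyl-tRNA synthetase, which charges tRNAs with glycine, and dominant mutations in it cause peripheral neuropathy. Ribosome profiling sequences the stretches of mRNA that ribosomes shield from RNase, so the reads of a gene follow both how much of its mRNA is present and how many ribosomes sit on it. No RNA library was analysed here, and these parts cannot be told apart.

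The inherited neuropathies known as Charcot-Marie-Tooth disease and its relatives arise from mutations in many genes, several of which act on membranes inside the long axon or in the Schwann cell that wraps it. Mitochondria fuse and divide through GTPases and partner proteins of their outer membrane. Endosomes mature into lysosomes under the control of small GTPases and of phosphatases that trim phosphoinositides, the signalling lipids that mark each compartment, and the endoplasmic reticulum makes the sphingolipids and lipid droplets that membranes draw on. Recessive or dominant mutations in each of the 10 genes below are known causes of human neuropathy. Peripheral nerve and dorsal root ganglia were not the tissue profiled, and the spinal cord holds the motor neuron cell bodies beside many other cells.

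The Gars C201R/+ library held 3491159 reads on genes, and the wild-type library held 7770935, a 2.23-fold difference in depth. RPKM, as deposited, is the number of reads of a gene scaled to its length and to the reads of the library. The ratio between the libraries was taken after TMM scaling, which sets the bulk of genes to equal levels, and is given as Gars C201R/+ over wild type. Directions are thus relative to the gene reads: scaling to the ERCC spike-ins, synthetic RNAs that took a far larger share of the Gars C201R/+ library, would put all 10 members lower by shifting every gene by 1 common factor. With 1 library per genotype no p-value between genotypes was computed, and every interval below is at 95%, covers counting error alone and leaves out the spread between animals and between library preparations. In bulk tissue, fewer cells of a type and less RNA per cell cannot be told apart. Cell type markers and Gars itself were not checked, because 0 of the 12530 identifiers could be paired with a symbol in the annotation used here. The symbols of the 10 members came with their list.

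Among these 10 genes, Litaf was 1.88-fold higher in the Gars C201R/+ library, while Gdap1 and Fig4 were lower, each at 0.610 of the wild-type level. The other 7 lay between 0.819-fold and 1.28-fold. A gene was called on 3 conditions: at least 100 reads over the 2 libraries, a counting interval that left out 1, and a ratio of at least 1.5-fold in either direction. By that rule 1 of the 10 members was called higher, and 8.14% of the 9726 genes tested were. The rule called 2 of the 10 lower, against 11.2% of the genes tested. These shares are close to what the whole table gives, so the number of calls says nothing particular to the set.

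**Figure D1:**
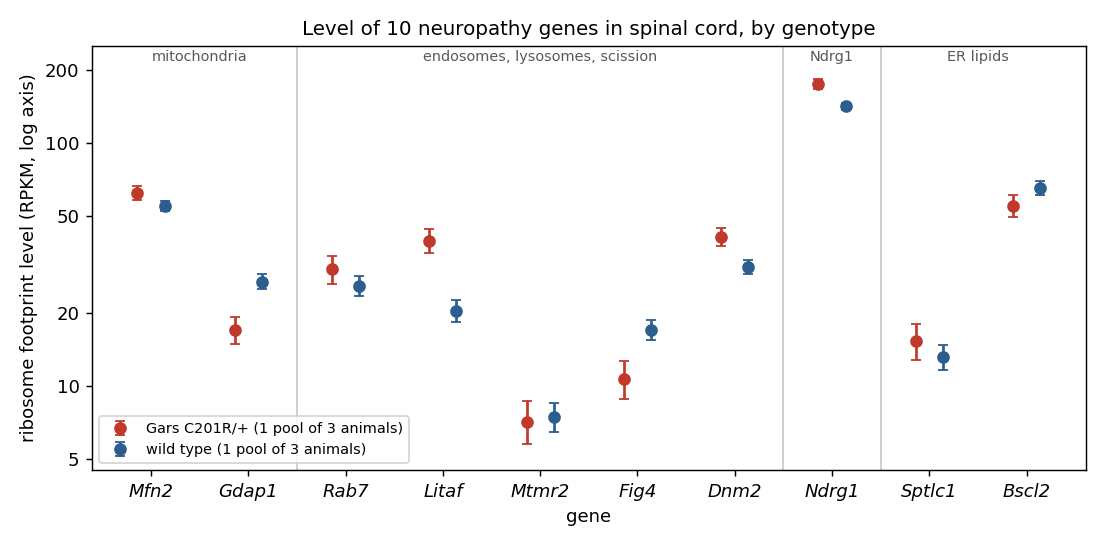
Level of each of the 10 genes (RPKM, log axis) in the Gars C201R/+ library (red, left) and in the wild-type library (blue, right), with bars for the exact 95% Poisson interval of the reads. Litaf is the gene whose red point stands furthest above its blue point, Gdap1 and Fig4 have the red point well below the blue one, and Ndrg1 is the highest gene in both libraries.

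Of the 2 members of the mitochondrial outer membrane, Gdap1 was called lower, as were 11.2% of the genes tested, and Mfn2 was not called. So few genes allow no reading of the compartment. Mfn2 (ENSMUSG00000029020, chromosome 4, 147873586 to 147904909) encodes mitofusin 2, a GTPase that tethers and fuses mitochondria. It had 930 reads in the Gars C201R/+ library (interval 871 to 992), or 62.3 RPKM, against 1817 reads in the wild-type library (1734 to 1903), or 55.0 RPKM. Its ratio was 1.10-fold (1.01 to 1.19), a log2 ratio of 0.13. Gdap1 (ENSMUSG00000025777, chromosome 1, 17145373 to 17164271) encodes a protein of the mitochondrial outer membrane that takes part in fission. It had 235 reads in the Gars C201R/+ library (206 to 267), or 16.9 RPKM, against 826 reads in the wild-type library (771 to 884), or 26.9 RPKM. The Gars C201R/+ level was 0.610 of the wild-type level (0.526 to 0.706), a log2 ratio of -0.71.

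The balance between these genes can be read without any scaling of the libraries. Mfn2 had 3.96 times as many reads as Gdap1 in the Gars C201R/+ library and 2.20 times as many in the wild-type library. By RPKM, the Mfn2 level was 3.68 times the Gdap1 level in the Gars C201R/+ library and 2.05 times in the wild-type library. RPKM rests here on lengths of 4241 nt for Mfn2 and 3949 nt for Gdap1, and the proportion per coding length was not tested. The read ratio of Mfn2 to Gdap1 was 1.80-fold higher (1.52 to 2.13) in the Gars C201R/+ library. Gdap1 differed likewise from all 8 members other than Fig4, by 1.34-fold to 3.08-fold, so the difference is not particular to Mfn2. Of all pairs of tested genes, 50.2% differed by more than a large-sample counting interval.

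Of the 5 members that act on endosomes, lysosomes and membrane scission, 1 was called higher and 1 lower. Of the genes tested, 8.14% were called higher and 11.2% lower, and 5 genes are too few to read anything about the compartment. Rab7 (ENSMUSG00000079477, chromosome 6, 87999106 to 88045270) encodes the small GTPase of late endosomes and lysosomes. It had 229 reads in the Gars C201R/+ library (200.3 to 261), or 30.1 RPKM, against 435 reads in the wild-type library (395 to 478), or 25.9 RPKM. The ratio of 1.13-fold had an interval of 0.958 to 1.33, and no difference was detectable at this depth. RefSeq also lists a pseudogene, Rab7-ps1, and reads shared with it could not be separated from those of Rab7.

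Litaf (ENSMUSG00000022500, chromosome 16, 10959273 to 10993121) encodes a small membrane-anchored protein of late endosomes and lysosomes that helps sort cargo for degradation. It had 310 reads in the Gars C201R/+ library (276 to 347), or 39.4 RPKM, against 354 reads in the wild-type library (318 to 393), or 20.3 RPKM. Although the wild-type library was more than 2-fold deeper, the read numbers of Litaf were close. The ratio was 1.88-fold (1.61 to 2.19), a log2 ratio of 0.91. Litaf was the only member whose whole interval lay past 1.5-fold, and its ratio stood at the 97.5th percentile of the genes tested. Rab7 and Litaf had the same 664 reads over both libraries, which makes them a direct pair. Litaf had 1.35 reads for each Rab7 read in the Gars C201R/+ library and 0.814 in the wild-type library, a difference of 1.66-fold (1.33 to 2.09). It differed likewise from each of the other 9 members, by 1.46-fold to 3.08-fold, so the difference is not particular to Rab7.

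Mtmr2 and Fig4 encode phosphatases of phosphoinositides. Mtmr2 (ENSMUSG00000031918, chromosome 9, 13747260 to 13808896) removes a phosphate from endosomal phosphoinositides. It was the least covered member, with 95 reads in the Gars C201R/+ library (76.9 to 116), or 7.12 RPKM, against 219 reads in the wild-type library (191 to 250.006), or 7.42 RPKM. Its ratio of 0.930 had an interval of 0.723 to 1.19, and no difference was detectable at this depth. Fig4 (ENSMUSG00000038417, chromosome 10, 41188172 to 41303241) works in a complex with the lipid kinase PIKfyve and the scaffold VAC14. It had 123 reads in the Gars C201R/+ library (102 to 147), or 10.6 RPKM, against 433 reads in the wild-type library (393 to 476), or 16.9 RPKM. The Gars C201R/+ level was 0.610 of the wild-type level (0.495 to 0.746), a log2 ratio of -0.71, and Fig4 was called lower.

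The proportion of Mtmr2 to Fig4 reads differed between the libraries. Fig4 differed likewise from all 8 members other than Gdap1, so this is not particular to the phosphatase pair. Mtmr2 had 0.772 reads for each Fig4 read in the Gars C201R/+ library and 0.506 in the wild-type library, a 1.53-fold difference (1.10 to 2.11). The interval is wide because it rests on the 95 Mtmr2 reads and 123 Fig4 reads of the shallower library.

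Dnm2 (ENSMUSG00000033335, chromosome 9, 21424908 to 21507759) encodes dynamin 2, the widely expressed GTPase that pinches vesicles from membranes. It had 506 reads in the Gars C201R/+ library (463 to 552), or 41.0 RPKM, against 845 reads in the wild-type library (789 to 904), or 30.9 RPKM. Its ratio of 1.28-fold (1.15 to 1.44) was next below that of Litaf, and with a whole interval under 1.5-fold it was not called.

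Ndrg1 (ENSMUSG00000005125, chromosome 15, 66929318 to 66969641) encodes a cytoplasmic protein of myelinating glia, known to be needed for peripheral myelin and linked to endosomal recycling. It was the most abundant member, with 1780 reads in the Gars C201R/+ library (1698 to 1865), or 175 RPKM, against 3178 reads in the wild-type library (3068 to 3290.4), or 141 RPKM. The ratio was 1.20-fold (1.13 to 1.27). Its narrow interval reflects its many reads. Ndrg1 alone held 37.6% of the reads of the 10 members in the Gars C201R/+ library (Wilson interval 36.3% to 39.0%) and 33.9% in the wild-type library (33.0% to 34.9%). All 10 members together took 0.135% of the gene reads in the Gars C201R/+ library (0.132% to 0.139%) and 0.121% in the wild-type library (0.118% to 0.123%).

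The 2 members of the endoplasmic reticulum were not called, while 8.14% of the genes tested were called higher and 11.2% lower. Sptlc1 (ENSMUSG00000021468, chromosome 13, 53332748 to 53377417) encodes a subunit of serine palmitoyltransferase, the enzyme that starts sphingolipid synthesis. It had 140 reads in the Gars C201R/+ library (118 to 165), or 15.3 RPKM, against 266 reads in the wild-type library (235 to 299.96), or 13.1 RPKM, a ratio of 1.13-fold (0.913 to 1.39). Bscl2 (ENSMUSG00000071657, chromosome 19, 8837467 to 8848683) encodes seipin, which shapes lipid droplets where they bud from the endoplasmic reticulum. It had 380 reads in the Gars C201R/+ library (343 to 420.2), or 55.0 RPKM, against 995 reads in the wild-type library (934 to 1059), or 65.1 RPKM. At 0.819 of the wild-type level (0.726 to 0.923), Bscl2 was the lowest of the 7 members that were not called.

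**Figure D2:**
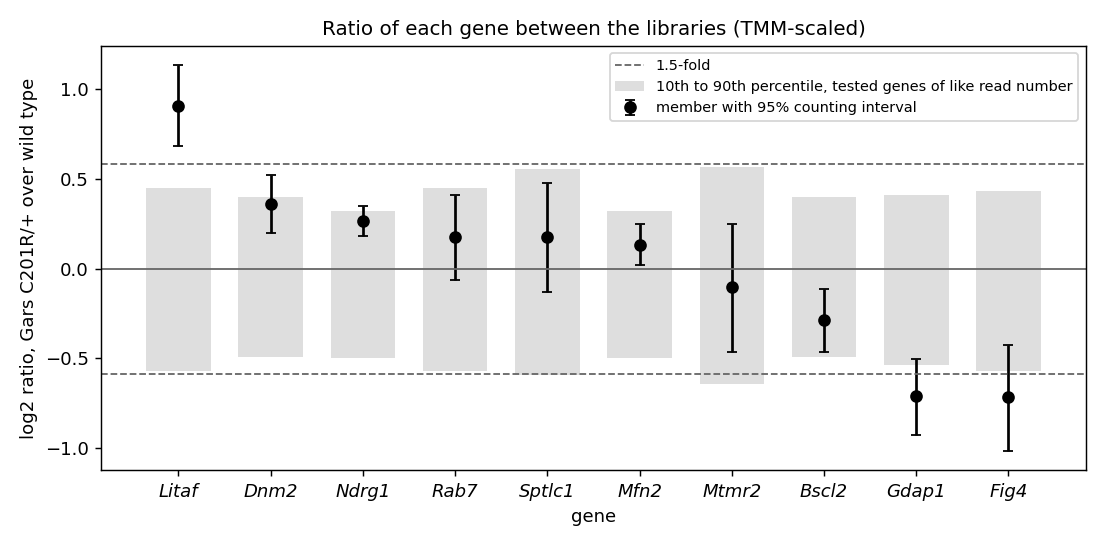
Log2 ratio of each gene, Gars C201R/+ over wild type, from highest to lowest, with its 95% counting interval; dashed lines mark 1.5-fold in either direction. Grey bars run from the 10th to the 90th percentile of the tested genes in the same group by read number (10 groups). Litaf lies above its grey bar, Gdap1 and Fig4 lie below theirs, and the other 7 points lie within.

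Counting intervals leave out the spread between libraries. Each ratio was also set beside those of genes of like read number in the same libraries. Such a spread over genes does not measure how a gene varies between replicate libraries. The tested genes were split into 10 groups by reads. In the group of Litaf, with 602 to 819 reads in both libraries together, the log2 ratios ran from -0.57 at the 10th percentile to 0.45 at the 90th, and Litaf was at 0.91. In the group of Gdap1, with 819 to 1213 reads, they ran from -0.54 to 0.41, and Gdap1 was at -0.71. In the group of Fig4, with 447 to 602 reads, they ran from -0.57 to 0.43, and Fig4 was at -0.71. The other 7 members lay between the 10th and 90th percentile of their own groups. These percentiles all lie within 1.5-fold for the groups of Litaf, Gdap1 and Fig4, so a called gene falls outside them by construction, and the comparison adds nothing to the call. In these groups, 14.6% of the genes in that of Litaf, 11.9% of that of Gdap1 and 14.6% of that of Fig4 were called in one direction or the other.

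The counting interval alone left out 1 for 7 of the 10 members, with Litaf, Dnm2, Ndrg1 and Mfn2 above 1 and Gdap1, Fig4 and Bscl2 below it. It did so for 51.9% of the genes tested. Of the 10 ratios, 6 were above 1, against 47.1% of the genes tested. The median log2 ratio of the members was 0.15, against -0.03 over all genes tested. The ratios of the members had an SD of 0.50, against 0.49 over all genes tested.

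**Figure D3:**
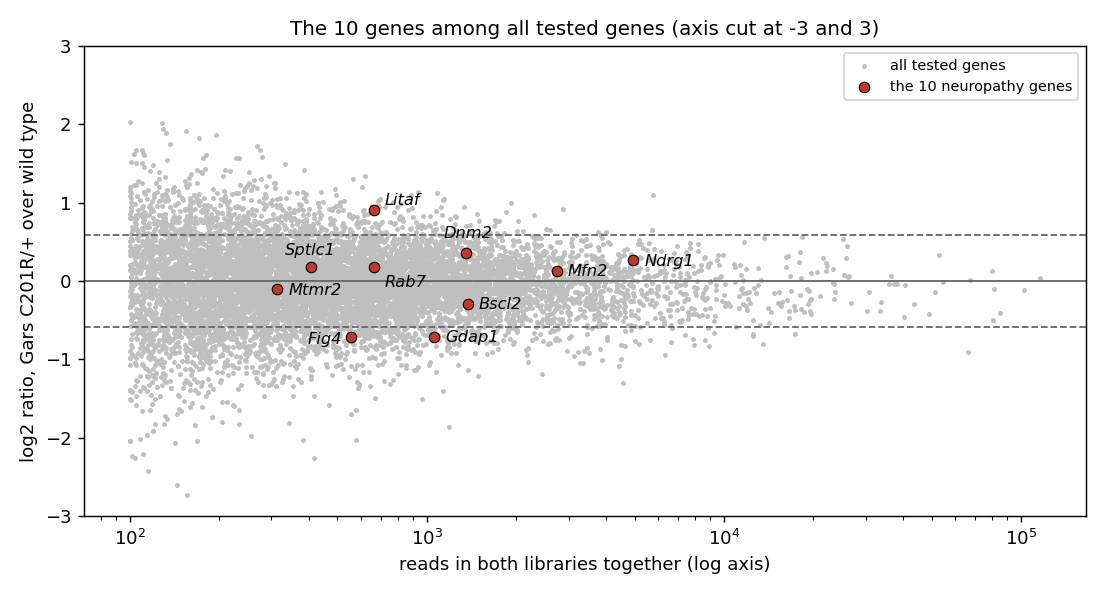
Log2 ratio, Gars C201R/+ over wild type, against the reads of both libraries together (log axis) for the tested genes (grey) and the 10 members (red); dashed lines mark 1.5-fold, and 9 genes beyond -3 or 3 are not drawn. All 10 members lie within the cloud of tested genes, with Litaf above the upper dashed line, Fig4 and Gdap1 below the lower one, and the other members between the lines.

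Ratios between members need no scaling, and 31 of the 45 pairs differed between the libraries by more than their counting interval. So did 50.2% of all pairs of tested genes, by a large-sample form of the interval that also gave 31 of 45 for the members. Pairs share genes and well covered genes have narrower intervals, so nothing particular to the set is read from this count. Litaf differed from each of the other 9 members, by 1.46-fold against Dnm2 and by 3.08-fold against both Gdap1 and Fig4. Gdap1 and Fig4 each differed from all 8 members other than themselves, the least from Bscl2, by 1.34-fold each. Between the pair, Gdap1 had 1.91 reads for each Fig4 read in either library, a ratio of ratios of 1.00 (0.777 to 1.29). Among the 7 members not called, 8 of the 21 pairs differed. These intervals, too, hold counting error alone. Each pair ratio divides the ratio of a member between the libraries by that of another, and the calls rest on the same ratios. That Litaf, Gdap1 and Fig4 stand apart among the pairs thus adds nothing to their calls.

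**Figure D4:**
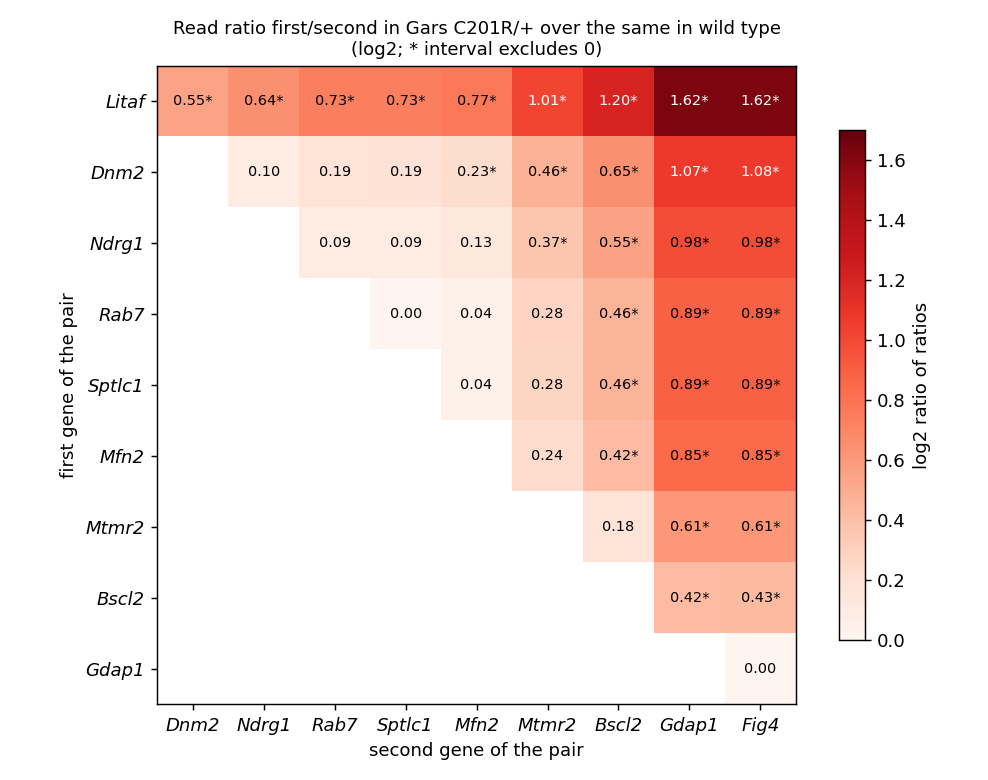
For each of the 45 pairs of members, the number of reads of the first gene (row) over the second (column) in the Gars C201R/+ library, divided by the same ratio in the wild-type library, on the log2 scale; an asterisk marks a 95% counting interval that leaves out 0. The row of Litaf and the columns of Gdap1 and Fig4 carry asterisks throughout except for the cell that pairs Gdap1 with Fig4, at 0.00.

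Levels per length put the members across a wide range, 24.6-fold from Mtmr2 to Ndrg1 in the Gars C201R/+ library and 19.0-fold in the wild-type library. The median listed gene had 8.63 RPKM in the Gars C201R/+ library and 8.40 RPKM in the wild-type library, and 9 of the 10 members lay above it in each. Mtmr2 lay just under it, at the 44.7th percentile of listed genes in the Gars C201R/+ library and at the 46.6th in the wild-type library. Ndrg1 lay at the 97.4th percentile in the Gars C201R/+ library and at the 96.7th in the wild-type library.

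From high to low, the order in the Gars C201R/+ library was Ndrg1, Mfn2, Bscl2, Dnm2, Litaf, Rab7, Gdap1, Sptlc1, Fig4 and Mtmr2. Dnm2 and Litaf, and Gdap1 and Sptlc1, were neighbours that did not differ in RPKM beyond counting error. In the wild-type library it was Ndrg1, Bscl2, Mfn2, Dnm2, Gdap1, Rab7, Litaf, Fig4, Sptlc1 and Mtmr2, and only Gdap1 and Rab7 were not separated. Of the 10 members, 4 (Ndrg1, Dnm2, Rab7 and Mtmr2) held the same place in both. Litaf held place 5 in the Gars C201R/+ library and place 7 in the wild-type library, and Gdap1 held place 7 in the Gars C201R/+ library and place 5 in the wild-type library. The lengths behind RPKM ran from 1962 nt for Bscl2 to 4241 nt for Mfn2, and which part of each gene was counted is not given in the sources used here. How the order would stand per coding length was not tested.

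At 5 of the 10 loci the whole gene span, introns included, overlaps that of another gene. Whether exons overlap was not checked, and the strand setting of the counting is not given in the sources used here. Sharing of reads at these loci was thus not tested. In the RefSeq annotation of GRCm38.p6 the span of Bscl2 overlaps Gng3, that of Mtmr2 overlaps Cep57, that of Dnm2 overlaps Tmed1 and smaller RNA genes, and those of Rab7 and Fig4 overlap noncoding genes. Fig4 overlaps only a small nucleolar RNA gene, and the spans of Litaf and Gdap1 overlap no other listed gene.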

How the data were processed

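Per the labels' protocols, spinal cord lysates of 3 animals per genotype were pooled and ribosome-protected fragments were made with RNase I and sequenced as cDNA. The submitters' processing notes name Bowtie 1.2.2 and HTSeq 0.9.1, with GRCm38 as the build. The authors deposited raw read counts per gene and RPKM values, per the file headers. Dividing one by the other gave the same gene lengths in both tables.

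The 18 ERCC spike-ins were kept out of the scaling. Genes were scaled by TMM (edgeR 4.0.16, R 4.3.3), and ratios had a prior count that averaged 0.5 and was scaled to the depth of each library. Intervals of ratios and of pairs are exact conditional ones, those of reads exact Poisson ones. No model across genotypes was fitted, as 2 libraries leave 0 residual degrees of freedom. Calling was checked on simulated counts that held counting error alone, so the check cannot show how calls hold under spread between animals or preparations. All 10 members were named. The members, gene lists and alternatives were chosen with earlier results of these data known. The 13 lists of other genes, including cell type markers, were not analysed here for want of symbols. Gene positions are RefSeq's. DESeq2 1.42.0 size factors were an alternative. Other steps used Python 3.11.15 with scipy 1.17.1 and matplotlib 3.10.9.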

Additional observations from a re-analysis of the deposited data

Results flagged for a closer look

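The ERCC spike-ins, synthetic RNAs outside the genes compared above, made up 0.650% of the listed reads in the Gars C201R/+ library (Wilson interval 0.642% to 0.659%) and 0.00669% in the wild-type library (0.00614% to 0.00729%), and all 18 were higher in the Gars C201R/+ library relative to gene reads. Whether equal amounts were added is not stated.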

How the results depend on the processing

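Litaf stayed called higher, and Gdap1 and Fig4 lower, under total-count, DESeq2 and upper-quartile scaling and without genes above 1% of a library. They also stayed called with the wild-type library thinned and with a 99% interval. A minimum of 20 or 500 reads or none could not change these calls. Litaf had 664 reads over both libraries, Gdap1 had 1061 and Fig4 had 556. A 2-fold limit left 0 members called in either direction, and no fold limit called 4 higher and 3 lower. Under 6 alternatives of scaling, depth and prior count the median log2 ratio of the members lay between 0.15 and 0.21, that of Litaf between 0.86 and 0.96, that of Gdap1 between -0.73 and -0.66 and that of Fig4 between -0.72 and -0.66. Scaling to the spike-ins shifts every gene by 1 common factor. It gave 0 members higher and 10 lower, a median of -6.40 and a Litaf log2 ratio of -5.65, and leaves the ratios between members as they are. TPM kept the order of levels by its construction, and the order per coding length was not run because no protein table was used here. No paired analysis was possible because there is 1 library per genotype, and no replicate could be left out.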
